A study of Mus musculus with 192 samples.

Results

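The genes described here are 6 members of the leukemia inhibitory factor (LIF)-STAT3 pathway, chosen by name, with earlier results of these data known, from the 39815 gene identifiers with values in all fractionated libraries. They are Osm, which encodes the secreted ligand oncostatin M, the receptor genes Lifr and Il6st, the transcription factor gene Stat3, and Socs3 and Pim1, which are known STAT3 target genes. LIF binds the LIF receptor, which pairs with the shared signalling chain gp130, the product of Il6st. Kinases bound to these chains phosphorylate STAT3, which dimerizes, enters the nucleus and binds DNA. In mouse embryonic stem cells (mESCs) this pathway sustains self-renewal, which is why LIF is part of their culture medium. SOCS3 acts back on the receptor complex as an inhibitor, and PIM1 is a serine/threonine kinase. In the mouse, oncostatin M signals mainly through its own receptor chain, encoded by Osmr, together with gp130.

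RNA was collected from E14 mESCs (129/Ola strain) during differentiation with retinoic acid (RA). Before the start, cells grew on gelatin without feeders in 2i medium with LIF, the MEK inhibitor PD0325901, the GSK3 inhibitor CHIR99021 and extra insulin, and this condition is the 0 h group. At 0 h all of these were withdrawn together and 0.25 µM all-trans RA in basal N2B27 medium was added, and fresh medium was given once more at 48 h. Later samples were taken at 7 times between 6 h and 96 h. No later group of the time course kept LIF or lacked RA, so the withdrawal of LIF, of each inhibitor and of insulin, the addition of RA and the time itself cannot be told apart. Apart from the time course, 12 control libraries of mESCs from the transfection experiments were read. These cells stayed in 2i medium with LIF and serum and received no or scrambled oligonucleotides.

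Nuclear and cytoplasmic RNA were each sequenced in 24 libraries, 3 differentiation runs (numbered 5, 6 and 7) at each of the 8 times. Their depth was 6860451 to 30624948 counts per library in nuclear RNA and 9119521 to 21652601 in cytoplasmic RNA. Total RNA of unsorted cells was sequenced in 14 libraries, 9 of them made with Bowtie2 (29362017 to 36364330 counts) and 5 from another run made with STAR (12653980 to 13692847 counts). After 96 h of RA, cells were sorted with antibodies against CD24 and PDGFRA into a library titled XEN (extraembryonic endoderm-like) and a library titled ECT (ectoderm-like), 1 of each. Levels are given as CPM, a gene's count as a share of its library scaled by TMM, and a call is an adjusted p under 0.05 in the quasi-likelihood test of edgeR, with the adjustment over all genes tested.

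The summed level of 5 measured stem cell markers was 184 to 237 CPM at 96 h, against 3826 to 4031 CPM at 0 h, in cytoplasmic RNA. That of 8 endoderm markers was 7472 to 11800 CPM at 96 h, against 56.5 to 58.8 CPM at 0 h, and that of 5 ectoderm markers was 921 to 948 CPM, against 174 to 197 CPM. In bulk RNA, fewer cells of a type and less RNA per cell cannot be told apart, and the part of the changing cell types in the results below was not tested. The 2 fractions were only weakly separated. Averaged over the 8 times, the nuclear fraction held more of the nuclear RNAs Neat1, Meg3 and Malat1 by only 0.77 ± 0.08, 0.67 ± 0.07 and 0.37 ± 0.08 on the log2 scale (± SE). Of the total RNA libraries, those made with Bowtie2 at 36 h and at 48 h were nearly equal. Their median squared difference was 1.19 times the counting noise, whereas that of the next closest of 91 pairs was 10.4 times, and the names of their deposits carry the same index. They are treated as possibly 1 library, and results that rest on them are given with and without them.

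A palindromic motif with the arms TTC and GAA, separated by 3 bases, is the usual binding sequence of STAT proteins, and it was searched in RefSeq promoter windows (GRCm38.p6, which is mm10) from 250 bases before to 50 after a start site. The motif reads the same on both strands. The windows of 5 of the 6 genes were found, with 2 start sites each for Lifr and Pim1. Of all 32851 windows 8.3% held the motif. Only the Socs3 window held one among those searched, starting 154 bases before the RefSeq start site of that window. The stretch shown spans chr11:117969502-117969530 on the minus strand. It is shown because Socs3 is the gene of the set that is best known as a direct STAT3 target (motif in capitals).
Socs3: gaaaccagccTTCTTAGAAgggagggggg
A match of letters is a description and not a measured binding site, and binding was not measured here. In the mm10 annotation (GENCODE M21), Osm lies on chromosome 11 from 4236420 to 4241026, Stat3 on chromosome 11 from 100885098 to 100939540 and Socs3 on chromosome 11 from 117966079 to 117970047. Socs3 is on the minus strand, so its GENCODE start is at 117970047. The motif shown lies within the GENCODE gene, downstream of that start, and is upstream only of the RefSeq start used for the window. Il6st lies on chromosome 13 from 112464070 to 112510086, Lifr on chromosome 15 from 7090614 to 7197489, and Pim1 on chromosome 17 from 29490753 to 29496112. The last 72 bases of Stat3 overlap those of the convergent gene Stat5a, so a few reads at this end depend on the use of strand in the counting, which is stated for the STAR libraries and not for the Bowtie2 libraries.

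Osm, the only ligand gene in the set, was the only 1 of the 6 genes with no counts in either fraction at 72 h and 96 h. In cytoplasmic RNA it stood at 38.8, 43.3 and 42.5 CPM in the 3 runs at 0 h, at 6.62, 6.00 and 4.66 CPM at 6 h, and at 1.73, 2.17 and 1.44 CPM at 12 h. It went on to 0.370, 0.944 and 1.15 CPM at 24 h and to 0.279, 0.840 and 0.109 CPM at 36 h. At 48 h the 3 libraries held 2 Osm counts together, and at 72 h and 96 h they held none. No run at any later time overlapped the 0 h runs. Relative to the 0 h mean, the level was 7.01-fold lower at 6 h (95% Poisson interval 6.09 to 8.11), 22.8-fold lower at 12 h (18.5 to 28.6), 48.7-fold lower at 24 h (34.3 to 71.6) and 102-fold lower at 36 h (58.3 to 197). These intervals cover the counting error of the later group only. The 36 h value rests largely on run 6, which held 8 of the 12 counts, and without that run the level was 202-fold lower (78.9 to 741). With 2 counts, the ratio at 48 h was 632 (175 to 5217), and with a floor of 3 counts over the group, Osm was at least 617-fold lower at 72 h and at least 535-fold lower at 96 h. Without run 6 the value at 48 h was 395, and the limits at 72 h and 96 h were 355-fold and 303-fold. Osm fell in edgeR's test at all 7 later times, with adjusted p of 1.29e-06 or less.

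Nuclear Osm RNA followed the same course. It stood at 32.5, 48.4 and 34.9 CPM at 0 h, at 7.35, 2.79 and 2.51 CPM at 6 h and at 2.41, 2.05 and 1.09 CPM at 12 h, and no counts were found at 72 h or 96 h. The level was 10.3-fold lower at 6 h than at 0 h (8.77 to 12.1), or 15.5-fold without run 5 (12.6 to 19.4), and at least 452-fold lower at 96 h, or 244-fold without run 6. Osm fell in edgeR's test at all 7 times, with adjusted p of 0.000603 or less. From 6 h to 12 h, cytoplasmic Osm fell by 1.69 on the log2 scale (SE 0.34, adjusted p = 0.0042 in edgeR). That call was lost without run 6 (adjusted p = 0.0695) and without run 7 (0.0689). In nuclear RNA the same step was -1.20 ± 0.60 (adjusted p = 0.35).

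Osm was also lower at every later time in total RNA. In the Bowtie2 libraries Osm had 32.2 and 14.3 CPM at 0 h, 1.99 CPM at 6 h and 0.545 CPM at 24 h, and there was 1 count each at 36 h and 48 h and none at 72 h and in both 96 h libraries. In the STAR libraries it had 22.7 CPM at 0 h, 0.507 CPM at 12 h and 0.205 CPM at 24 h, which is 7 and 3 counts at these later times, none at 36 h and 2 counts at 48 h. At 96 h Osm was at least 476-fold lower than at 0 h. This limit was 293-fold without replicate 1 at 0 h, and 262-fold and 215-fold without replicate 1 and replicate 2 at 96 h. Osm fell in the test of the 4 Bowtie2 libraries (adjusted p = 0.00316 in edgeR). Since Osm is best known from myeloid cells, markers of macrophages and blood cells were read beside it. In the 3 cytoplasmic 0 h libraries Ptprc and Adgre1 were at 0, and Csf1r had at most 0.306 CPM. The sum over the 6 measured markers was 11.4 to 19.7 CPM at 96 h, against 177 to 203 CPM at 0 h, and nearly all of it at 0 h came from Laptm5 (159 to 184 CPM) and Cd68 (15.7 to 16.5 CPM).

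In mean CPM both receptor genes were below their 0 h level at 36 h and 48 h and were higher at 72 h and 96 h than at 48 h. By this measure Lifr was lowest at 48 h in both fractions, and Il6st at 24 h in cytoplasmic and at 36 h in nuclear RNA. In TPM, a level also scaled by transcript length, nuclear Lifr was lowest at 36 h (11.5 ± 0.61). At 48 h it spread widely (30.7 ± 31.6 TPM, 12.2 to 67.2), against 23.3 ± 3.18 TPM at 0 h. Cytoplasmic Il6st had 23.9 TPM at 24 h and 23.6 TPM at 48 h. Lifr, which encodes the LIF-binding chain, averaged 123 ± 7.02, 159 ± 36.0, 166 ± 7.86, 136 ± 8.09, 72.6 ± 12.3, 52.7 ± 4.06, 176 ± 34.9 and 544.5 ± 10.1 CPM (SD, n = 3 each) in cytoplasmic RNA over the 8 times from 0 to 96 h. Its single values were 533, 551 and 549.5 CPM at 96 h, against 124, 129.7 and 116 CPM at 0 h. The lowest were 49.8, 57.4 and 50.9 CPM at 48 h. All 3 runs at 48 h lay below, and all 3 at 96 h above, every library of any other time. The mean level at 96 h was 10.3 times that at 48 h. Against 0 h, Lifr fell at 36 h (log2 fold change -0.80 ± 0.14, adjusted p = 7.55e-05 in edgeR) and at 48 h (-1.26 ± 0.15, 1.67e-07) and rose at 96 h (2.10 ± 0.14, 1.57e-11).

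The changes of Lifr at other times were smaller. It rose by 0.40 ± 0.14 at 12 h (adjusted p = 0.0304) and by 0.48 ± 0.14 at 72 h (0.00474), but both calls were lost without run 6 (0.199 and 0.0697) or without run 7 (0.0682 and 0.0645). At 6 h the change of 0.34 ± 0.14 was not called (adjusted p = 0.0657). There run 5 had 119.7 CPM and the other runs 168 and 190 CPM, and without run 5 the gene passed the test (0.53 on the log2 scale, adjusted p = 0.0016). The 6 h change also passed in DESeq2 (adjusted p = 0.0498) and in edgeR with no count filter (0.0443). Between neighbouring times, cytoplasmic Lifr fell from 24 h to 36 h and from 36 h to 48 h and rose by 1.74 ± 0.15 from 48 h to 72 h and by 1.61 ± 0.14 from 72 h to 96 h, while the steps between 6, 12 and 24 h did not pass. The step to 48 h was lost without run 5 (0.0579) or run 6 (0.323).

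Nuclear Lifr RNA was 468, 467 and 491 CPM at 96 h, against 155, 143 and 136 CPM at 0 h, and 56.5, 57.3 and 70.9 CPM at 48 h. It fell at 36 h (-1.15 ± 0.12) and at 48 h (-1.23 ± 0.13) and rose at 96 h (1.72 ± 0.12, adjusted p = 3.04e-11). It also rose at 6 h (0.41 ± 0.12, adjusted p = 0.018) and at 72 h (0.31 ± 0.12, 0.034). The 6 h and 72 h calls were lost without run 5 (0.131 and 0.1195) or without run 6 (0.0801 and 0.193), and that at 72 h also with no count filter (0.092).

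Il6st, which encodes the signalling chain gp130, was already called at 6 h, and at 96 h its values spanned those at 0 h again. In cytoplasmic RNA it averaged 272 ± 11.8, 159 ± 33.4, 139 ± 3.17, 113 ± 4.74, 115.5 ± 9.54, 117 ± 1.24, 172 ± 22.7 and 281 ± 25.9 CPM over the 8 times (SD, n = 3 each). Its values at 6 h were 120, 179.7 and 176 CPM, against 259, 281 and 277 CPM at 0 h, so the groups did not overlap. It fell by 0.81 on the log2 scale at 6 h (SE 0.11, adjusted p = 7.72e-06 in edgeR) and by 1.25 at 48 h (SE 0.12, 3.82e-09). At 96 h the values were 306, 283 and 254 CPM, and the difference from 0 h was -0.00 ± 0.11 (adjusted p = 0.992). Il6st was not called between neighbouring times from 6 h to 48 h (adjusted p of 0.0692 to 0.947), although without run 5 the steps from 6 h to 12 h (-0.34, 0.0425) and from 12 h to 24 h (-0.32, 0.0316) passed. It rose by 0.55 ± 0.11 from 48 h to 72 h and by 0.70 ± 0.11 from 72 h to 96 h. The step to 72 h was not called without run 6 (adjusted p = 0.0528).

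In nuclear RNA Il6st had 174, 176 and 173 CPM at 6 h and 258, 239 and 212 CPM at 96 h, against 275, 254 and 262 CPM at 0 h. It fell by 0.60 at 6 h (SE 0.11, adjusted p = 0.000374) and was lowest at 36 h, with 99.5, 96.5 and 104.7 CPM (-1.39 ± 0.11). The difference at 96 h was -0.16 ± 0.11 (adjusted p = 0.249). The step from 36 h to 48 h was 0.34 ± 0.11 (adjusted p = 0.0518), and it passed with the run as a block (0.0316).

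Stat3, the transcription factor gene, had a lower mean CPM at each later time until 72 h in cytoplasmic RNA and rose between 72 h and 96 h. In cytoplasmic RNA it averaged 241 ± 6.92, 206 ± 7.04, 183 ± 7.49, 158 ± 1.31, 129 ± 5.91, 122 ± 6.44, 104.7 ± 2.97 and 148.5 ± 1.67 CPM over the 8 times (SD, n = 3 each). The values at 72 h were 103, 108 and 103 CPM, against 248, 241 and 234 CPM at 0 h. At 96 h they were 149, 147 and 149.8 CPM, above every 72 h library and below every 0 h library. Stat3 fell at all 7 times against 0 h, from -0.25 ± 0.06 at 6 h (adjusted p = 0.00147 in edgeR) to -1.24 ± 0.06 at 72 h (1.78e-14), and it was -0.75 ± 0.06 at 96 h (8.14e-11). The 6 h call was lost without run 6 (0.0614). Between 72 h and 96 h it rose by 0.49 ± 0.06 (8.89e-07). The steps from 6 h to 12 h and from 36 h to 48 h were not called, although the former passed in DESeq2 (0.0299). Without run 6, the steps to 24 h, 36 h and 72 h were lost (0.227, 0.128 and 0.0514). Without run 7, those to 24 h and 72 h were lost (0.054 and 0.082), as with no count filter (0.191 and 0.0752). In TPM, cytoplasmic Stat3 was lowest at 48 h (41.7 ± 1.86) and had 51.1 ± 21.9 at 72 h.

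Nuclear Stat3 RNA was first called at 24 h. Its values at 6 h were 218, 225 and 206 CPM, against 203, 218 and 214 CPM at 0 h, a difference of 0.03 ± 0.12 (adjusted p = 0.892). At 12 h the difference was -0.31 ± 0.12 (adjusted p = 0.0668), which passed with the run as a block (0.0193), as did the step from 6 h to 12 h (0.149 without the block and 0.0469 with it), and at 24 h it was -0.41 ± 0.12 (0.0108), which was lost without run 6 (0.161). It was lowest at 72 h, with 101, 97.9 and 87.2 CPM (-1.15 ± 0.12, 2.93e-08), and rose by 0.57 ± 0.12 from 72 h to 96 h (0.00193), a step that was lost without run 6 (0.0583). In TPM it was lowest at 36 h (45.4 ± 3.73), with 46.2 ± 11.1 at 72 h.

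Socs3, the inhibitor, was not called at 6 h or 12 h and had its lowest level at 72 h in both fractions. In cytoplasmic RNA it averaged 219 ± 18.5, 207 ± 18.7, 198 ± 1.36, 173 ± 13.5, 108 ± 14.0, 62.3 ± 4.64, 32.8 ± 7.02 and 84.3 ± 11.9 CPM over the 8 times (SD, n = 3 each). At 6 h the values of 228, 201 and 192 CPM overlapped those of 198, 229 and 230.5 CPM at 0 h, and the changes at 6 h and 12 h did not pass (-0.11 ± 0.12, adjusted p = 0.548, and -0.18 ± 0.12, 0.286). At 72 h the values were 26.9, 30.7 and 40.6 CPM. Socs3 fell by 1.06 on the log2 scale at 36 h (SE 0.12), by 1.85 at 48 h (SE 0.13) and by 2.78 at 72 h (SE 0.13, adjusted p = 2.86e-14). From 72 h to 96 h it rose by 1.35 ± 0.13 (6.56e-08), yet all 96 h values of 85.8, 71.7 and 95.4 CPM stayed below those at 0 h (-1.43 ± 0.12, 8.61e-10). A smaller fall at 24 h (-0.38 ± 0.12, 0.0149) was lost without run 6 (0.104) or run 7 (0.153).

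Nuclear Socs3 RNA spread more between runs. It had 154, 92.1 and 86.0 CPM at 36 h and 42.7, 33.9 and 38.1 CPM at 72 h, against 203, 264 and 201.5 CPM at 0 h. It fell at 36 h (-1.01 ± 0.22, adjusted p = 0.000752), a call that was lost without run 6 (0.0895), and at 72 h (-2.54 ± 0.23, 2.77e-09). From 72 h to 96 h it rose by 1.13 ± 0.23 (0.0011), and this was lost without run 6 (0.073). The step from 24 h to 36 h, -0.67 ± 0.22, was not called (0.0828) and passed with the run as a block (0.00958).

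Pim1, the kinase gene, was highest at 36 h and 48 h and lowest at 96 h. In cytoplasmic RNA it averaged 161 ± 8.67, 153 ± 3.53, 135 ± 8.55, 157 ± 3.47, 230 ± 21.3, 237 ± 10.6, 95.9 ± 8.84 and 75.4 ± 13.5 CPM over the 8 times (SD, n = 3 each). Its values were 229, 232 and 249 CPM at 48 h and 64.6, 71.1 and 90.6 CPM at 96 h, against 167, 151 and 164 CPM at 0 h, and neither later group overlapped the 0 h group. It rose at 36 h (0.48 ± 0.10, adjusted p = 0.000239 in edgeR) and at 48 h (0.52 ± 0.10, 6.88e-05), then fell between 48 h and 72 h (adjusted p = 6.8e-10). At 96 h it was below the 0 h level (-1.15 ± 0.10, 5.78e-10). The rise at 36 h was lost without run 6 (0.061). A dip at 12 h (-0.28 ± 0.10, 0.0238) was lost without run 6 (0.136) or run 7 (0.093).

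Nuclear Pim1 RNA had 300.4, 266 and 184 CPM at 48 h and 70.8, 83.8 and 71.5 CPM at 96 h, against 154, 183 and 153 CPM at 0 h. It rose at 36 h (0.65 ± 0.16, adjusted p = 0.00199) and at 48 h (0.61 ± 0.16, 0.00285) and had fallen at 96 h (-1.11 ± 0.16, 2.64e-06). Both rises were lost without run 5 (0.0884 and 0.1135). Run 7 at 48 h, with 184 CPM, lay close to the highest 0 h library.

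**Figure D1:**
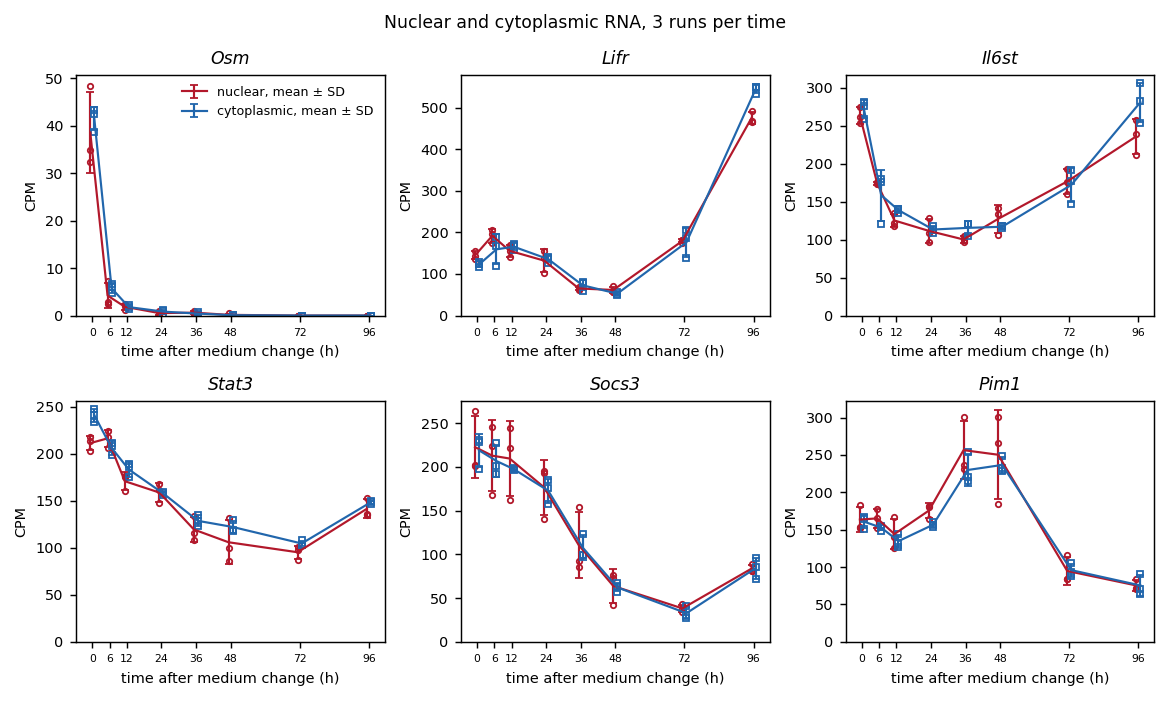
Level of each gene in CPM (vertical axes, from 0) against time after the medium change in h (horizontal axes), with nuclear libraries as red circles, cytoplasmic libraries as blue squares, and lines and bars for the mean ± SD of 3 runs. Osm was at 0 in all libraries at 72 h and 96 h, Stat3 and Socs3 were lowest at 72 h, Lifr reached 544.5 CPM in cytoplasmic RNA at 96 h, and Pim1 was highest at 36 h and 48 h.

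Counted over all members, 3, 5, 4, 6, 6, 6 and 5 of the 6 genes were called in cytoplasmic RNA at the 7 later times, in order, against 0 h. Of all 11675 genes tested, 33.4, 34.3, 43.8, 50.6, 57.1, 65.4 and 67.7% were called at these times, so a call by itself was common. In nuclear RNA 3, 2, 3, 6, 6, 6 and 5 members were called, beside 20.3, 23.9, 29.5, 38.9, 45.0, 53.2 and 55.5% of 11934 genes. Most called members fell (5 of 6 at 36, 48 and 72 h in both fractions). Of all genes tested in cytoplasmic RNA, 3055, 3343 and 3842 fell and 2849, 3319 and 3798 rose at these times. In nuclear RNA 2318, 2547 and 3064 fell and 2327, 2822 and 3284 rose. The median log2 fold change of all genes stayed between -0.02 and 0.01, and the direction of the members as a set was not tested. Between each time and the one before, 1, 1, 4, 2, 5 and 5 members were called in cytoplasmic RNA from 12 h to 96 h, beside 9.59, 19.4, 11.3, 16.5, 36.9 and 27.0% of genes. In nuclear RNA 1, 0, 3, 1, 4 and 4 members were called, beside 2.88, 10.3, 4.94, 11.5, 23.0 and 14.0% of genes. For the step from 12 h to 24 h in nuclear RNA, where edgeR called none, 1 member (Osm) had an unadjusted p under 0.05 and DESeq2 called 1.

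The order of the genes by level changed over time, which was read from the deposited TPM, a level scaled by transcript length and depth. In cytoplasmic RNA at 0 h, Socs3 had the highest level (112 ± 10.5 TPM), followed by Stat3 (87.7 ± 16.7), Pim1 (78.3 ± 5.21), Il6st (49.4 ± 2.65), Osm (28.6 ± 0.65) and Lifr (17.8 ± 0.88), each as mean ± SD of 3 runs. The ranges of Stat3 and of its neighbours Socs3 and Pim1 overlapped. At 96 h Lifr was highest (185 ± 7.73 TPM), followed by Il6st (59.7 ± 4.80), Stat3 (55.2 ± 3.98), Socs3 (52.9 ± 6.67), Pim1 (44.9 ± 6.74) and Osm at 0. The 3 genes from Il6st to Socs3 were within their spread of their neighbours in this order, as were Socs3 and Pim1. In cytoplasmic RNA the mean level of the LIF-binding chain was thus the lowest of the 6 genes at 0 h and the highest at 96 h. In nuclear RNA at 0 h the ranges of Lifr (19.9 to 26.2 TPM) and Osm (23.8 to 34.8 TPM) overlapped, and in the STAR total RNA library at 0 h Osm was lowest (16.05 TPM), below Lifr (29.1 TPM).

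The fractions were compared in level and in change. By the paper's methods both fractions came from the same lysates, a pairing that the main fit did not use. Deviations from group means of the 24 such pairs correlated at a median of -0.06 (-0.196 to 0.273). Averaged over the 8 times, 1 of the 6 members differed between nuclear and cytoplasmic RNA, beside 31.1% of 11817 genes. This was Stat3, which was lower in nuclear RNA by a small margin (log2 fold change -0.09 ± 0.03, adjusted p = 0.029), and the call was lost without run 6 (0.274) or run 7 (0.387) and with no count filter (0.0766) or a filter at a mean of 50 counts (0.0596). For the others except Osm the mean difference was between -0.05 and 0.08, and for Osm it could not be estimated from libraries at 0. The change from 0 h was then compared between fractions at each later time. edgeR called none of the 42 tests of members, and DESeq2 none, while 2 had an unadjusted p under 0.05. Both were of Lifr, whose change was smaller in nuclear RNA at 96 h (by -0.43 ± 0.19, adjusted p = 0.651, 0.582 to 1 over the alternatives) and more negative at 36 h (by -0.39 ± 0.19, 0.832). Of all genes, 0, 0, 0.00846, 0, 0.381, 0.00846 and 0% were called at the 7 times, so the test found few genes of any kind.

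**Figure D2:**
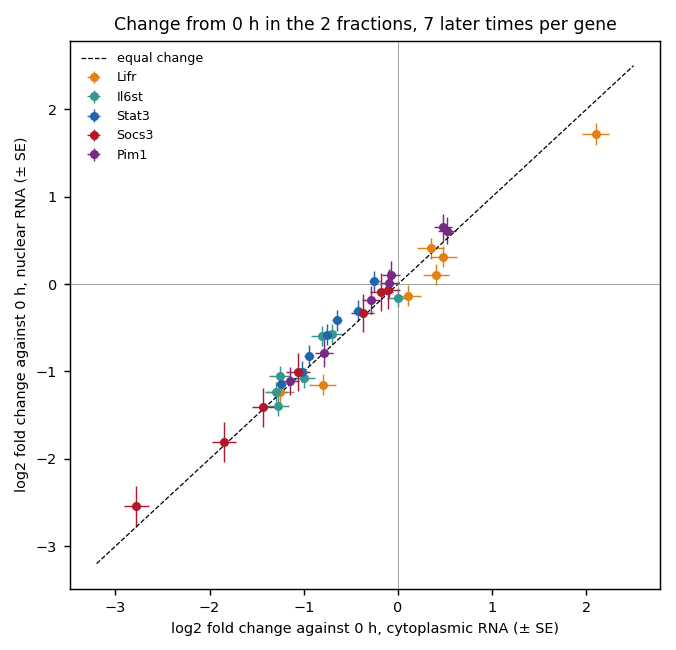
Log2 fold change against 0 h in nuclear RNA (vertical axis) and in cytoplasmic RNA (horizontal axis), with SE bars, for 5 genes at 7 later times, and the line of equal change. Osm is left out because its later levels reach 0. The lowest point is Socs3 at 72 h (-2.54 nuclear, -2.78 cytoplasmic) and the highest is Lifr at 96 h (1.72 nuclear, 2.10 cytoplasmic).

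Total RNA of unsorted cells came from other cultures and was read within each pipeline, since the levels of the 2 pipelines differ. Lifr had 245 and 449 CPM at 96 h, against 29.0 and 55.5 CPM at 0 h, in the Bowtie2 libraries. Pim1 had 29.5 and 45.2 CPM at 96 h, against 77.9 and 109 CPM at 0 h. Socs3 had 41.7 and 31.9 CPM at 96 h, against 114 and 127 CPM at 0 h, and the groups of 2 overlapped for none of these genes. In the test of these 4 libraries, 4 of the 6 members were called, beside 29.7% of 15777 genes. Lifr rose (2.99 ± 0.47, adjusted p = 0.009 in edgeR), and Socs3 (-1.75 ± 0.26, 0.00758), Pim1 (-1.36 ± 0.32, 0.0277) and Osm fell. The Pim1 call was lost without replicate 2 at 0 h (0.0604) or replicate 1 at 96 h (0.1375). Stat3 had 87.2 and 92.2 CPM at 96 h, against 91.9 and 116 CPM at 0 h, and was not called (-0.25 ± 0.24, 0.462). Il6st, with 113 and 174 CPM at 96 h, against 84.7 and 97.1 CPM at 0 h, did not pass (0.61 ± 0.29, 0.163) here, while it did in the fit of all 14 libraries (0.0442).

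The early course of Stat3 and Socs3 and the low point of Stat3 in total RNA differed in value from those in the fractions. The low point of Socs3 differed in time only with the nearly equal Bowtie2 libraries at 36 h and 48 h. Socs3 had 38.7 CPM in the single Bowtie2 library at 6 h, against 114 and 127 CPM at 0 h, whereas the cytoplasmic 6 h runs of 192 to 228 CPM overlapped their 0 h runs. In the STAR libraries Socs3 had 160 CPM at 0 h, 68.4 CPM at 12 h, 45.4 CPM at 24 h, 20.8 CPM at 36 h and 24.4 CPM at 48 h. Stat3 had 44.6 CPM in the Bowtie2 library at 6 h, against 91.9 and 116 CPM at 0 h, and in the STAR libraries it had 187, 121, 97.8, 76.5 and 86.0 CPM at 0, 12, 24, 36 and 48 h. The nearly equal Bowtie2 libraries at 36 h and 48 h had 9.81 and 9.70 CPM of Socs3 and 30.5 and 32.2 CPM of Stat3. At 72 h the Bowtie2 library had 18.7 CPM of Socs3 and 57.8 CPM of Stat3, so neither gene was lowest at 72 h there. Without the Bowtie2 libraries at 36 h and 48 h, Socs3 was lowest at 72 h (32.6 CPM at 24 h). Stat3 was then still lower at 24 h (34.5 CPM) than at 72 h. With at most 1 library at each of these later times in each pipeline, the difference between these cultures and the fractionated ones was not tested. Il6st in the STAR libraries had 207 CPM at 0 h and 67.5, 72.9, 80.6 and 107 CPM at the 4 later times, with all of these below 0 h as in the fractions.

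When all 14 total RNA libraries were fitted together with a term for the pipeline, 0, 0, 4, 5, 5, 4 and 5 members were called against 0 h at the 7 times, beside 0.112, 0.571, 12.3, 29.2, 34.1, 29.1 and 44.9% of 16123 genes. At 6 h and at 12 h, where edgeR called no member, 4 members had an unadjusted p under 0.05 at each time, and DESeq2 called 3 at 6 h (Stat3, Socs3 and Osm) and 4 at 12 h (these and Il6st). Socs3 fell most at 36 h (-3.36 ± 0.28, adjusted p = 0.000218 in edgeR), and by 2.96 without the Bowtie2 libraries at 36 h and 48 h (0.0206). Lifr rose by 1.69 ± 0.47 at 72 h (0.0274) and by 2.82 ± 0.41 at 96 h (0.000844). Pim1 was not called at 36 h or 48 h (0.26 ± 0.28 and -0.10 ± 0.28), nor without these libraries (0.15, adjusted p = 0.892, and -0.64, 0.334). At 48 h it had 58.5 CPM against 94.8 CPM at 0 h in the STAR libraries, and 120 CPM against 77.9 and 109 CPM in the Bowtie2 libraries, and the highest Pim1 level in both pipelines was at 24 h (134 and 156 CPM). Without the Bowtie2 libraries at 36 h and 48 h, 15 of the 42 tests of members passed, compared with 23 with them. At 36 h Stat3 (adjusted p = 0.0685), Il6st (0.0945) and Lifr (0.0882) were then no longer called, as they were not at 48 h (0.0543, 0.141 and 0.0933), nor Pim1 at 72 h (0.0732) or Il6st at 96 h (0.099).

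**Figure D3:**
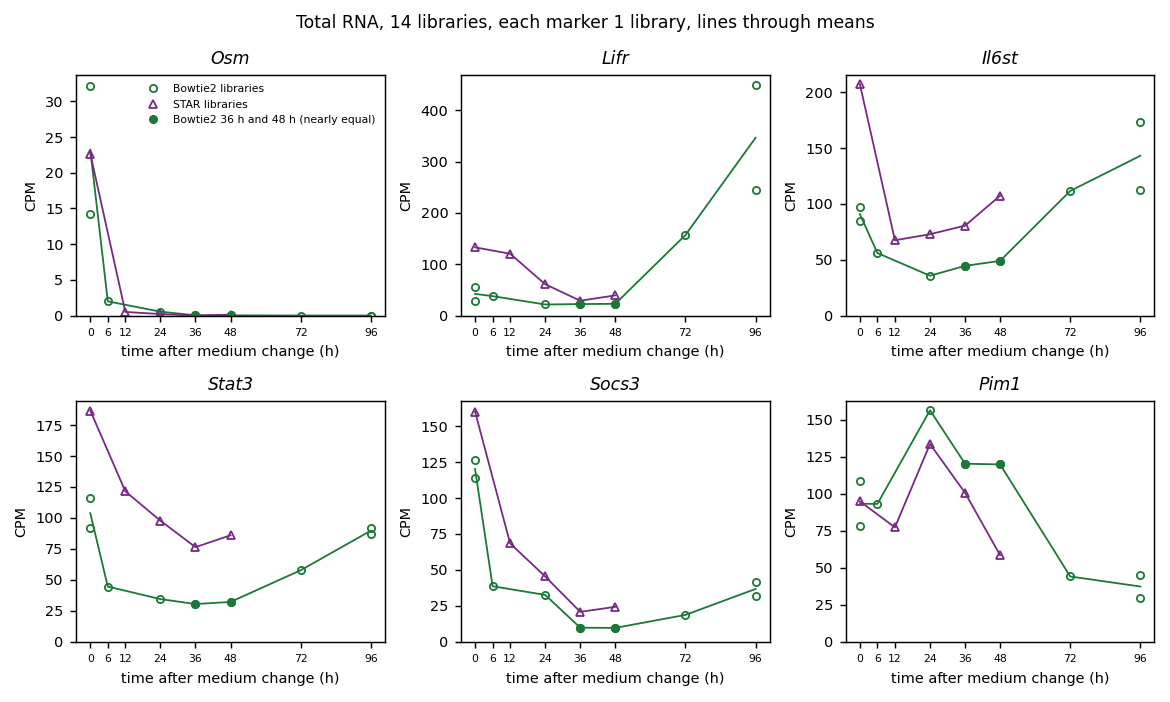
Level of each gene in CPM (vertical axes, from 0) in 14 total RNA libraries against time after the medium change in h (horizontal axes). Each marker is 1 library, circles stand for Bowtie2 and triangles for STAR libraries, filled circles mark the nearly equal Bowtie2 libraries at 36 h and 48 h, and lines join the means of a pipeline. Socs3 had 38.7 CPM at 6 h and 9.81 and 9.70 CPM in the filled circles, and Lifr rose to 245 and 449 CPM at 96 h.

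The sorted libraries show how the members were spread between the 2 cell types after 96 h of RA. The sort markers fit the titles: the library titled XEN had 838 CPM of Pdgfra and 23.4 CPM of Cd24a, and the library titled ECT had 224 CPM of Pdgfra and 707 CPM of Cd24a. The sort label attached to each library gives the opposite markers, so the titles are used throughout. The sum of 8 endoderm markers was 11420 CPM in the library titled XEN and still 4273 CPM in the library titled ECT. Lifr had 400 CPM in the library titled XEN (95% Poisson interval 392 to 408.5) and 123 CPM in that titled ECT (119 to 126.5), a ratio of 3.26 (3.15 to 3.38). Stat3 had 96.6 CPM in XEN and 49.7 CPM in ECT, a ratio of 1.95 (1.83 to 2.07). Pim1 was the only member that was over 2-fold higher in ECT, with 15.6 CPM in XEN (14.0 to 17.3) and 43.7 CPM in ECT (41.5 to 45.9), a ratio of 0.357.

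Il6st and Socs3 were at similar levels in both sorted libraries. Il6st had 135 CPM in XEN and 115.5 CPM in ECT (ratio 1.17, 1.12 to 1.23), and Socs3 had 38.7 CPM in XEN and 35.8 CPM in ECT (1.08, 0.993 to 1.18). Osm had 1 count in XEN and 0 in ECT, where the floor of 3 counts allows 0.0831 CPM. With 1 library per type there is no replicate check and no test, and the intervals cover counting error only. Of the 6 members 2 (Lifr and Pim1) were past 2-fold, beside 28.2% of 15088 genes, so the share is no result about the members.

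**Figure D4:**
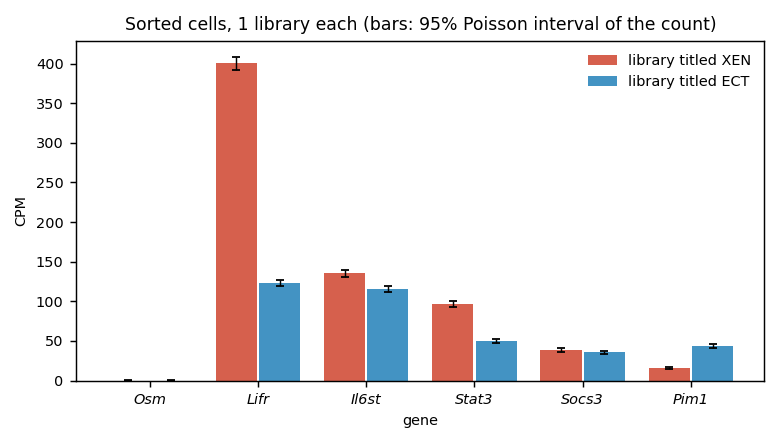
CPM (vertical axis, from 0) of each gene in the library titled XEN (left bar) and the library titled ECT (right bar), with 95% Poisson intervals of the count, 1 library each. Lifr (400 and 123 CPM) and Stat3 (96.6 and 49.7 CPM) were higher in XEN, Pim1 (15.6 and 43.7 CPM) was higher in ECT, and Osm was at or near 0 in both.

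As a reference for cells held in self-renewal medium, the members were read in control libraries of the transfection experiments, in which cells stayed in 2i medium with LIF and serum and received no or scrambled oligonucleotides. In the 6 controls of the miR mimic experiment Osm had 2.55 to 5.97 CPM (median 3.80), and in the 6 of the inhibitor experiment 7.85 to 19.8 CPM (median 17.3). Socs3 had 134 to 197 CPM in the mimic controls and 189 to 267 CPM in the inhibitor controls, and Stat3 had 154 to 186 CPM in the mimic controls and 198 to 242 CPM in the inhibitor controls. Every control library thus held Osm RNA (33 to 473 counts). In the mimic controls Lifr had 90.5 to 137 CPM, Il6st 68.6 to 99.8 CPM and Pim1 109.6 to 147.5 CPM. In the inhibitor controls Lifr had 76.0 to 97.7 CPM, Il6st 83.2 to 127 CPM and Pim1 163 to 232 CPM. These levels were scaled apart from those of the time course and are not compared with it.

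The genes most like each member over the 24 cytoplasmic libraries were found by Pearson's r of log2 CPM among 9503 genes with a mean count of at least 50, which describes shared courses over the same 8 times and libraries. The gene most like Socs3 was Klf4 (r = 0.98), a pluripotency transcription factor that is itself a known STAT3 target in mESCs, and it ranked 1 over the 24 nuclear libraries (r = 0.97) but 11 by Spearman's rho over the cytoplasmic ones. The order depended on the measure and the libraries: of the 18 genes named here, 6 were among the top 3 by Spearman's rho and 3 over nuclear libraries, and Tnni1 ranked 376 and Dennd2c 283 by Spearman's rho. Osm was most like Bdh1 (0.98), Tnni1 (0.98) and Mfn1 (0.97), Stat3 most like Epha4 (0.97), Ly75 (0.97) and Ckb (0.96), and Il6st most like the zinc finger gene Plagl1 (0.98) and the lysosomal genes Ctsb (0.95) and Psap (0.94). Lifr was most like Bcl7a (0.94), Hspg2 (0.93) and Ikbip (0.92), and Pim1 most like Gpbp1l1 (0.93), Upp1 (0.92) and the glucose transporter gene Slc2a3 (0.92). Socs3 was also close to Dennd2c and Mta2 (both 0.96). Among the members themselves, Stat3 was close to Osm (0.89) and Socs3 (0.89), Lifr to Il6st (0.67), and Lifr ran opposite to Pim1 (-0.90).

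Lists of pathway genes, some of which include members, were counted in cytoplasmic RNA at 96 h against 0 h. There 33.3% of all genes tested rose and 34.4% fell, with a median log2 fold change of -0.02. Of 20 listed STAT3 targets of mESCs, which include Stat3, Socs3 and Pim1, 16 were tested. Of these 15 fell and 1 rose, with a median of -1.53. Tfcp2l1, a transcription factor of naive pluripotency, had 23.0, 22.1 and 28.5 CPM at 96 h, against 1583, 1518 and 1631 CPM at 0 h (-6.07 ± 0.15, adjusted p = 6.19e-19 in edgeR). Klf4 fell by 2.83 (SE 0.13). The target that rose was Myc, with 68.8, 52.8 and 45.1 CPM at 96 h, against 4.86, 7.54 and 4.35 CPM at 0 h (3.30 ± 0.17). It had already risen at 6 h (3.38), when 5 of the 16 rose and 6 fell, beside 16.2 and 17.1% of all genes.

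Of the other receptor chains, Cntfr, which binds ciliary neurotrophic factor, rose most (6.16 ± 0.15), with 82.2, 87.3 and 77.1 CPM at 96 h, against 1.47, 1.22 and 0.775 CPM at 0 h. Il6ra, the interleukin 6 receptor chain, fell by 3.55 (SE 0.29), and Il11ra1 rose (1.67 ± 0.26). Together 3 of the 5 tested receptor genes, which include the members Lifr and Il6st, rose and 1 fell. Il6st was not called, and the median was 1.67. Osmr, the chain for Osm in the mouse, had too few counts for the test, with 4.05, 2.83 and 1.72 CPM at 96 h, against 0, 0 and 0.179 CPM at 0 h. Of the ligands, 4 were tested, of which 2 rose and 1, the member Osm, fell (median 0.68). Lif itself had 28.9, 30.7 and 39.3 CPM at 96 h, against 28.2, 19.6 and 23.5 CPM at 0 h (0.42 ± 0.18, adjusted p = 0.0426).

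Among 9 tested kinases and phosphatases 4 rose and 4 fell (median -0.29). Jak2, a kinase of the receptor complex, had 80.5, 74.6 and 69.3 CPM at 96 h, against 16.6, 14.8 and 18.7 CPM at 0 h (2.11 ± 0.15), while Yes1 (-1.65 ± 0.10), a Src-family kinase, and Ptpn6 (-1.59 ± 0.17), a phosphatase, fell. Of the other STAT genes, Stat6 (-2.61 ± 0.10) and Stat4 (-1.72 ± 0.23) fell and Stat5b rose (1.49 ± 0.13). Of the 10 tested inhibitors, which include the member Socs3, 4 fell and 1 rose, with a median of -0.04. Pias2 fell most (-1.83 ± 0.07), then Socs3 and Socs2 (-1.02 ± 0.09), and Socs5 rose (1.01 ± 0.25).

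Immediate early genes, which respond within minutes to growth factor signals, were read because the MEK inhibitor was withdrawn at the same time. At 6 h 2 of the 8 tested rose and 3 fell (median -0.24), and at 96 h 4 rose and 2 fell (median 0.74). Jun rose most at 96 h (4.13 ± 0.18), with 115, 123 and 115 CPM at 96 h, against 5.41, 7.64 and 6.44 CPM at 0 h, followed by Atf3 (3.32 ± 0.15) and Ier3 (1.71 ± 0.38), while Dusp1, a phosphatase of MAP kinases, fell (-1.59 ± 0.14). Egr1, a target of the MEK pathway chosen after its values were seen, had risen by 6 h (2.01), unlike the median of the list. The part of the MEK inhibitor in these changes was not tested. Markers of fibroblasts also rose by 96 h. The sum of the 6 measured was 206 to 244 CPM at 96 h, against 3.28 to 4.86 CPM at 0 h. Over the 7 measured in the sorted cells, it was 2.70 CPM in the library titled XEN, against 269.6 CPM in that titled ECT. Most of the sum in ECT came from 1 gene, Acta2 (223.5 CPM). These sums are given beside the lists because the part of such cells in them was not tested.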

How the data were processed

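Files of E14 mESCs during RA differentiation were used. The authors estimated the deposited expected counts and TPM per gene with RSEM, on mm10. The Bowtie2 libraries (part of the total RNA, and the sorted cells) were made with Bowtie2 2.2.6 and RSEM 1.2.28, and the fractions, the other total RNA and the transfection controls with Trimmomatic 0.38, STAR 2.6.1a and RSEM 1.3.1. Expected counts were rounded to whole numbers.

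Counts were scaled by TMM and tested across all genes with edgeR 4.0.16 in R 4.3.3 (quasi-likelihood, mean count above 10, Benjamini-Hochberg, threshold 0.05), 1 group per time and no block. Alternatives were DESeq2 1.42.0, its size factors, other filters, the run as a block and each run or library left out. The runs pair the libraries by label: deviations from group means of same-run libraries correlated at a median of 0.098 in cytoplasmic and 0.124 in nuclear RNA over times (-0.052 and -0.102 for other runs). Intervals and floors cover counting error only. In the fractions p-values measure the spread between these runs. In total RNA the test of the Bowtie2 libraries at 96 h rests on 2 libraries per time. The 14-library fit takes its spread from times with more than 1 library, across pipelines and cultures. At 6, 12 and 72 h it holds 1 library each, so p-values there do not measure a spread at that time. The members and gene lists were chosen with earlier results of these data known. Named genes are the members and, per list, up to 4 called genes with the largest change at 96 h and a mean count of at least 50; some of these genes are not reported here. The 3 genes most like each member are also named. Cell type markers, nuclear RNAs, Osmr, Stat5a and Egr1 are named outside this rule. miR, CDS and 3' UTR tables and other transfections were not used. Analyses were tested on simulated data. Tables and figures used Python 3.11.15 and matplotlib 3.10.9.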

Additional observations from a re-analysis of the deposited data

Results flagged for a closer look

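In all, 3 genes changed in opposite directions against 0 h in the total RNA of 1 pipeline and in a fraction where the gene was called in edgeR and all 3 runs moved one way. The difference itself was not tested in any of these cases, and the total RNA values rest on 1 later library each. Pim1 at 48 h was lower in the STAR total RNA library (log2 ratio -0.69), whereas it rose in cytoplasmic (0.52) and nuclear RNA (0.61). The Bowtie2 library at 48 h was higher than both 0 h libraries (0.14 and 0.62), as in the fractions. It is nearly equal to the Bowtie2 library at 36 h, so its time label is uncertain. Without it, only the lower STAR library is left at 48 h. Il6st at 72 h was higher in the Bowtie2 total RNA library (mean log2 ratio 0.30 over both 0 h libraries), whereas it fell in cytoplasmic (-0.70) and nuclear RNA (-0.58). Lifr at 12 h was slightly lower in the STAR total RNA library (-0.14), whereas it rose in cytoplasmic RNA (0.40). In nuclear RNA 2 runs were higher and 1 lower (-0.01 to 0.19). No group held the 4 or more libraries needed to look for single libraries that stand apart.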

How the results depend on the processing

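No called value of a member changed sign under any alternative listed. Of all comparisons of a single member test with its alternatives, 1794 stayed on the same side of the threshold, 68 lost it and 39 gained it. Leaving out run 6 lost the most calls (29), followed by run 5 (11) and run 7 (10). Members' calls between a time and the one before numbered 18 of 36 in cytoplasmic RNA and 9 to 19 with a run left out, and 13 in nuclear RNA and 4 to 12 with a run left out. Those for nuclear against cytoplasmic RNA numbered 1, and 0 with no count filter, 0 at a mean count over 50, and 0 to 2 with a run left out. The 14-library fit of total RNA called 23 member tests, and 15 without the Bowtie2 libraries at 36 h and 48 h. With the replicate block, 35 of 42 tests in cytoplasmic RNA and 32 in nuclear RNA against 0 h were called (35 and 31 without it), and apart from the 4 calls gained in nuclear RNA that stand with the results it changed none there. In total RNA the libraries share only a replicate number. With it as a block, 5 of 6 members were called at 96 h (4 without), Il6st being gained (adjusted p = 0.0391), and the deviations of same-numbered libraries correlated at 0.436 (1 pairing). Of the 18 genes most like the members, 6 were also among the top 3 by Spearman's rho and 3 over nuclear libraries. Calls lost with a run left out have fewer samples; other causes were not tested.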
